A study of Mus musculus with 10 samples.

Results

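The genes described here are 9 components, receptors and regulators of the complement system, taken by symbol from a table of 25232 genes measured by RNA-seq in the mouse spinal cord. They are *C1qa*, *C1qb*, *C1qc*, *C4b*, *C3*, *C3ar1*, *C5ar1*, *Serping1* and *Cd59a*, and all 9 were found. The RNA came from female mice of 90 days on a C57BL/6 background, 5 of them SOD1 G93A and 5 WT littermates. The SOD1 G93A mouse carries many copies of a human *SOD1* gene with a mutation of familial amyotrophic lateral sclerosis (ALS), under the promoter of that gene, so the protein is made in most cells and not in motor neurons alone. The labels name the spinal cord, and the methods its lumbar region. WT mice carry no transgene. The table gives 1 level per gene, the base mean, which is the authors' mean over all 10 libraries of the read counts divided by size factors. It therefore averages SOD1 G93A and WT mice, and no spread between mice can be given. The fold changes and p-values of the authors' own comparison were not used, so SOD1 G93A and WT were not compared here.

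Complement is a cascade of proteins that mark cells, debris and microbes for removal. In the classical pathway, C1q binds a target and activates the proteases C1r and C1s, which cut C4 and C2 to form an enzyme that cuts C3. The fragments of C3 and C4 stay on the target, the small fragments C3a and C5a act on receptors of myeloid cells, and the terminal components can form a pore in the membrane. In the central nervous system microglia are the main source of C1q, and C1q and C3 are known for marking synapses that microglia then remove.

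The 3 chains of C1q are encoded side by side on chromosome 4 of GRCm38, the build that mm10 denotes. *C1qb* lies from 136880129 to 136886187, *C1qc* from 136889804 to 136893065 and *C1qa* from 136895917 to 136898803, all on the minus strand. Each chain has a collagen-like part, in which each triplet of codons opens with glycine, and these parts wind around each other in the assembled protein. The longest unbroken run of such triplets of codons was 16 in *C1qa* (of 245 codons in all), 29 in *C1qb* (of 253) and 16 in *C1qc* (of 246). The first 8 triplets of each run are shown, as coding strand of the GENCODE M21 transcripts with the glycine codons in capitals, because they are the feature that the 3 chains share. They lie in the last coding exon of *C1qa* (chr4:136896637-136896708) and of *C1qc* (chr4:136890511-136890582), and in exon 2 of *C1qb* (chr4:136882146-136882217).
C1qa: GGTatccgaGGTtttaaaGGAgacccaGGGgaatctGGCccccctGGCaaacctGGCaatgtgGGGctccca
C1qb: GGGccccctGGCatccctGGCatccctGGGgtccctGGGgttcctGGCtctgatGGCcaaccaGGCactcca
C1qc: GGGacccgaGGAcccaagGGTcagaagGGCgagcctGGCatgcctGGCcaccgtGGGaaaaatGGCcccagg

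The C1q chains were among the highly expressed genes of the tissue. The base mean of *C1qa* was 1516 normalized counts, that of *C1qb* 1442.5 and that of *C1qc* 1225, so that the highest exceeded the lowest by 1.24 times. Levels of different genes can be compared only per length, and the base mean was therefore divided by the kilobases that all annotated exons of a gene cover. On this scale *C1qa* reached 1458 normalized counts per kilobase and *C1qb* 1326, higher than 97.2% and 96.9% of the 20403 genes with a base mean above 0 and a known length. *C1qc* reached 635 per kilobase, at percentile 92.0. The distance of *C1qc* from the other two chains depends on how its length is counted. Its exons cover 1931 bases over all annotated transcripts, while its longest single transcript has 1203 bases. Divided by the longest transcript of each gene, the level of *C1qc* was 1019 per kilobase, and the highest chain exceeded the lowest by 1.43 times in place of 2.30 times. Divided by the coding sequence, the factor was 1.24. *C1qa* stood highest and *C1qc* lowest of the chains in every one of these counts.

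**Figure D1:**
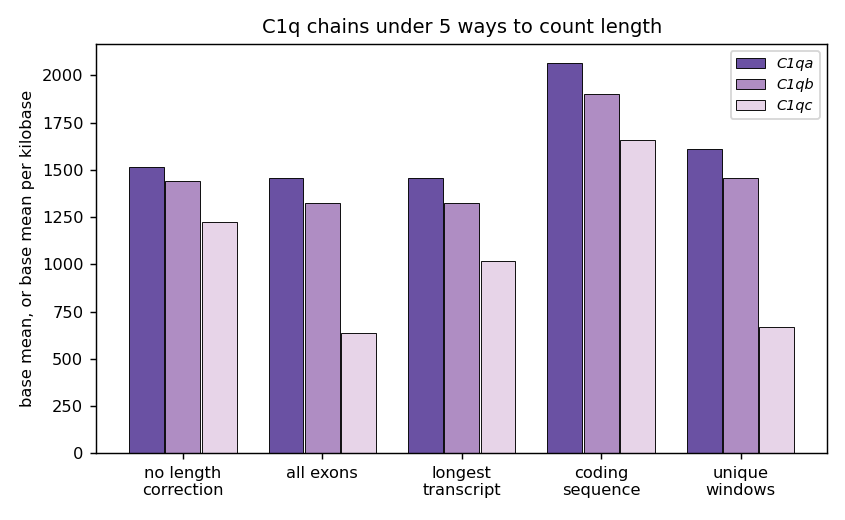
Levels of the C1q chains as the authors' base mean over all libraries (left group, normalized counts) and per kilobase of 4 kinds of length. Bars start at 0 and carry no error, since 1 value per gene was used; *C1qc* lies close to *C1qa* and *C1qb* without a length and at 635 against 1458 and 1326 per kilobase of all exons.

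The proteases that C1q carries were far lower than C1q itself. *C1s1*, the gene of C1s, had a base mean of 49.8 normalized counts and *C1ra*, the gene of C1r, one of 27.1. Per kilobase, *C1qc* exceeded *C1s1* by 39.9 times (39.9 to 69.4 over the 4 kinds of length) and *C1ra* by 69.9 times (45.7 to 130). *C1rl* (5.67 per kilobase) and *C1s2* (3.10) were lower than *C1ra* (9.08), and *C1rb* was listed at 0. *C1ra* and *C1rb* are close copies: 34.5% of the windows of 100 bases in the transcripts of *C1ra* also occur in *C1rb*, and the authors counted only reads with 1 place in the genome, so the low count of *C1ra* is uncertain. A listed 0 is not read as absence here, because all 4 haemoglobin genes looked up (*Hba-a1*, *Hba-a2*, *Hbb-bs* and *Hbb-bt*) were also listed at 0. These genes, too, share windows with each other, from 49.7% of those of *Hbb-bs* to 79.5% of those of *Hba-a2*. Part of the windows of each gene is not shared, and why these genes and *C1rb* were listed at 0 was not tested.

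*C4b* and *C3* were the most counted of the 9 genes. *C4b*, the gene of C4, lies on chromosome 17 from 34728380 to 34743882 on the minus strand and had a base mean of 4743 normalized counts, more than 96.1% of the 20973 genes above 0. *C3*, the protein on which all pathways meet, lies on the same chromosome from 57203970 to 57228136 and had a base mean of 2968, at percentile 92.1. Both transcripts are long, and per kilobase *C4b* (833) and *C3* (577) fell below *C1qa* and *C1qb*. *C4b* exceeded *C3* by 1.44 times on this scale. The proteins belong to 1 family and bind their targets through an internal thioester, formed between a cysteine and a glutamine. The coding sequence of each gene was searched for codons of glycine, cysteine, any residue, glutamate and glutamine in a row, and held them 1 time, in exon 24 of either transcript. That site is shown with its 15 bases in capitals, as the part of the protein that attaches to a surface (*C3* at chr17:57215829-57215873, *C4b* at chr17:34734466-34734510).
C3: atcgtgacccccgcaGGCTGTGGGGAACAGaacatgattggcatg
C4b: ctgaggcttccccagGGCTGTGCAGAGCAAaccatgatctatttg

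The components that act beside C4 and C3 were sparse in comparison. *C2*, which pairs with C4 in the enzyme that cuts C3, had a base mean of 41.4 normalized counts, and *C4b* exceeded it by 77.9 times per kilobase (50.1 to 95.7 over the kinds of length). *Cfb*, the partner of C3 in the alternative pathway, had a base mean of 102, and *C3* exceeded it by 16.0 times per kilobase. Both counts are uncertain, because 35.5% of the windows of 100 bases of *C2* and 66.9% of those of *Cfb* also lie in the overlapping gene model *Gm20547*. *Hc*, the mouse gene of C5, had a base mean of 6.93 and lay at percentile 13.8 per kilobase. *C3* exceeded *Hc* by 521 times on that scale. Of the 6 terminal genes after C5, 5 had a base mean under 5, from *C6* at 0.701 to *C8a* at 2.43. The exception was *C8g* (73.2), which encodes a chain that belongs to the lipocalins and not to the pore-forming proteins.

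Because *C4b* has a close copy, *C4a*, on the same chromosome (34809092 to 34823464), the counts of both rest on the reads that tell them apart. The transcripts were 96.1% identical over 5367 aligned bases, with 207 differences. Of the windows of 100 bases in *C4b*, 15.2% occur unchanged in *C4a*, and reads of that length from them have 2 places in the genome. The remaining 84.8% of the windows were found in no other gene. *C4a* had a base mean of 55.0 normalized counts, and *C4b* exceeded it by 93.9 times per kilobase. Both base means together gave 4798. The longest run without a difference inside 1 coding exon had 183 bases. The middle 60 bases of that run are shown beside the 60 bases with the most differences among stretches inside 1 coding exon that align without a gap. The first pair lies in exon 17 (*C4b* at chr17:34736521-34736580, *C4a* at chr17:34817168-34817227).
C4b: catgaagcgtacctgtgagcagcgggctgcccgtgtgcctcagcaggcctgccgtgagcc
C4a: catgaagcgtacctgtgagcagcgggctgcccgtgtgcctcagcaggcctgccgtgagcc

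The second pair lies in exon 21 and differs at 13 bases, which are in capitals (*C4b* at chr17:34735430-34735489, *C4a* at chr17:34816086-34816145).
C4b: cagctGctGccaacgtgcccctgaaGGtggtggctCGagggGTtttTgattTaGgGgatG
C4a: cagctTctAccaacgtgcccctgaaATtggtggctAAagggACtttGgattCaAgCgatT

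**Figure D2:**
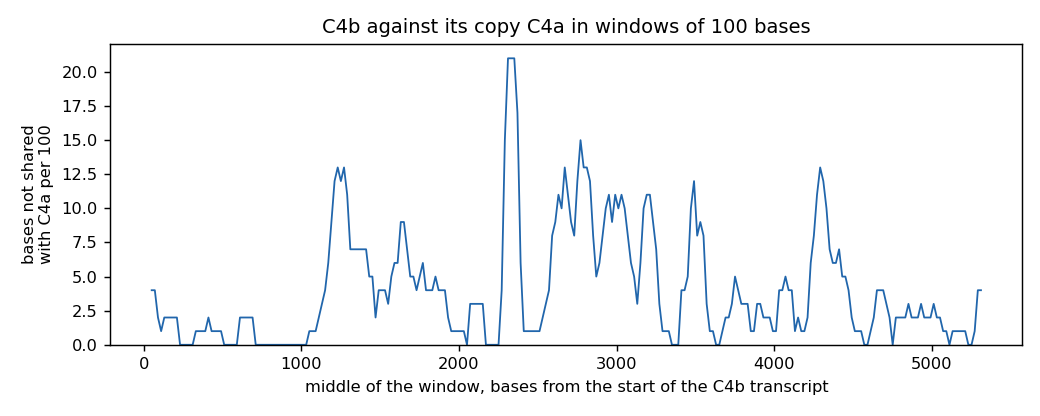
Number of bases of *C4b* without the same base in *C4a*, in windows of 100 bases along the longest coding *C4b* transcript, with the distance from its start in bases. The line rests at 0 in several stretches and reaches 21 per 100 bases at its highest, where bases absent from *C4a* are included, so that the reads that separate the genes come from parts of the transcript.

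The receptors of the small fragments were the lowest of the 9 genes. *C3ar1*, the receptor of C3a, lies on chromosome 6 from 122847138 to 122856161 and had a base mean of 92.7 normalized counts. *C5ar1*, the receptor of C5a, lies on chromosome 7 from 16246743 to 16259540 and had one of 24.2. Per kilobase their levels were 21.5 and 9.43, higher than 35.4% and 27.9% of the genes, and *C3ar1* exceeded *C5ar1* by 2.28 times. *C1qa* exceeded *C3ar1* by 67.7 times and *C5ar1* by 155 times per kilobase, and by 31.9 and 89.7 times per kilobase of coding sequence. The second C5a receptor, *C5ar2*, had a base mean of 22.7. For counting error alone, the 95% Poisson interval of the base mean would run from 21.2 to 27.4 for *C5ar1*. For *C5ar2* it would run from 19.8 to 25.9. These intervals overlap but take no account of length. Per kilobase of exon *C5ar1* exceeded *C5ar2* by 1.48 times, and per kilobase of coding sequence the levels were 23.0 and 21.2. The integrin genes *Itgam* (151) and *Itgb2* (89.6), which together encode the receptor CR3 for fragments of C3 on microglia, were higher than *C3ar1* per kilobase. Of the windows of *Itgam*, 64.3% also lie in the overlapping model *Gm49368*, so its count is uncertain. *Vsig4*, a complement receptor of resident macrophages in other organs, had a base mean of 0.581.

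By base mean and per kilobase of exon, the 2 regulators lay between the components and the receptors among the genes described. Per kilobase of coding sequence, *Cd59a* (1606) exceeded *C4b* (910) and *C3* (595). *Cd59a* encodes a protein on the cell surface that stops the terminal pore from forming, lies on chromosome 2 from 104095801 to 104115354 on the plus strand and had a base mean of 593 normalized counts. *Serping1* encodes the C1 inhibitor, which blocks C1r and C1s, lies on the same chromosome from 84765387 to 84775444 and had a base mean of 324. Per kilobase, *Cd59a* reached 327 (percentile 83.0) and *Serping1* 139 (percentile 65.5), so *Cd59a* exceeded *Serping1* by 2.35 times. The factor depended on the length used, with 1.79 for the longest transcript and 7.50 for the coding sequence. Per kilobase of coding sequence *Serping1* lay at percentile 46.8. *Serping1* was higher than *C1s1* and *C1ra*, which reached 15.9 and 9.08 per kilobase.

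*Cd59a* also has a copy nearby, *Cd59b*, with a base mean of 23.9 normalized counts, and *Cd59a* exceeded it by 17.8 times per kilobase (11.0 to 26.1 over the kinds of length). Here the copies are easier to tell apart than those of C4. The coding sequences were 85.0% identical over 354 aligned bases, and only 5 of 1811 windows of 100 bases in *Cd59a* (0.276%) occur in *Cd59b*. The most alike 60 bases within 1 coding exon open the coding sequence and differ at 1 base, in capitals (*Cd59a* at chr2:104104189-104104248, *Cd59b* at chr2:104078876-104078935).
Cd59a: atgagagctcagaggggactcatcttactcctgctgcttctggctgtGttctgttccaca
Cd59b: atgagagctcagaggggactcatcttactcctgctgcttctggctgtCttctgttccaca

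The 60 bases that are least alike lie in the last exon of either gene and differ at 25 bases (*Cd59a* at chr2:104114003-104114062, *Cd59b* at chr2:104084450-104084509).
Cd59a: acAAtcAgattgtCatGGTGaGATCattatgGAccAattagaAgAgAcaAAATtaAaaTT
Cd59b: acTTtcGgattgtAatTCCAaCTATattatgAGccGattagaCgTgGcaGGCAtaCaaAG

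**Figure D3:**
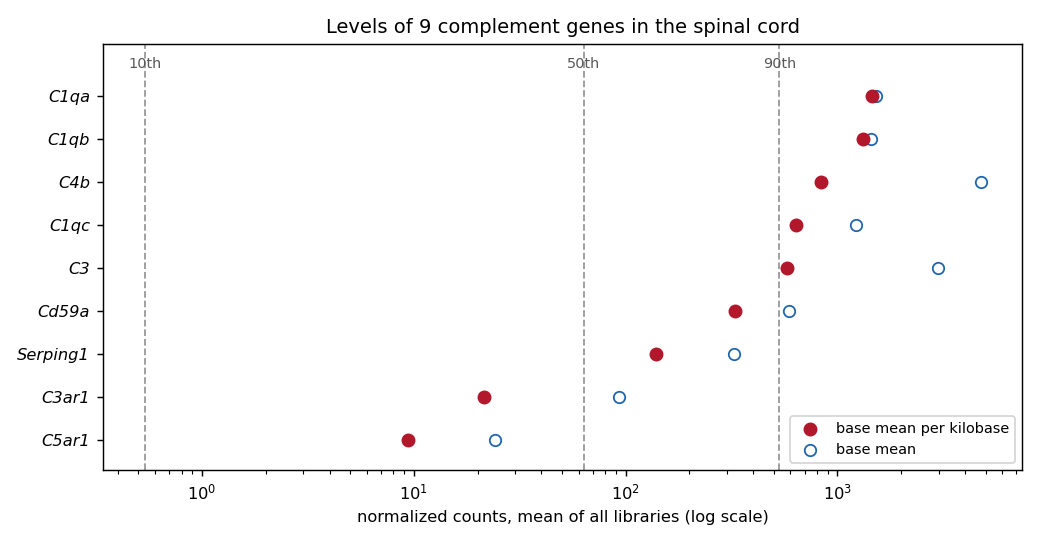
The 9 genes ordered by base mean per kilobase of exon (filled), with the base mean itself (open), both in normalized counts on a log axis. Dashed lines mark the 10th, 50th and 90th percentile of the per-kilobase level over all genes; *C1qa*, *C1qb*, *C4b*, *C1qc* and *C3* lie above the highest line and *C3ar1* and *C5ar1* below the middle one.

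Over the 9 genes, the level per kilobase ran from 9.43 for *C5ar1* to 1458 for *C1qa*, in the order *C1qa*, *C1qb*, *C4b*, *C1qc*, *C3*, *Cd59a*, *Serping1*, *C3ar1* and *C5ar1*. The order of neighbours cannot be tested without values of single mice. *C1qa* and *C1qb* were first and *C3ar1* and *C5ar1* last with each of the 4 kinds of length. Between them the order moved, as *C1qc* passed *C4b* when the longest transcript was used, and *Cd59a*, with a coding sequence of only 369 bases, passed *C4b* (1606 against 910 per kilobase) when the coding sequence was used. Of the 9 genes, 5 were among the highest 10% of all genes per kilobase and 7 lay above the median. The first count was 3 when genes under a base mean of 5 were left out of the ranking, and 4 with protein coding genes only. It was 0 when length was the coding sequence, which also left genes without one out of the ranking. With that length *Serping1*, at percentile 46.8, lay below the median, so the second count was lower too. The 9 base means, without a length correction, sum to 12928 normalized counts, which is 0.0583% of the 22158933 of the whole table.

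The other genes of the pathway give the context of these levels. A list of 51 complement genes was followed, all of which were in the table, and 42 of them are not among the 9. Of these 42, 15 had a base mean under 5, 2 were among the highest 10% per kilobase and 7 lay above the median of all genes. Among all 25232 genes, 16735 had a base mean of at least 5, so a value under 5 was not particular to this list. The median of the 42 genes was 8.97 normalized counts per kilobase, against 577 for the 9 genes and 63.4 for all genes above 0. Those among the highest 10% were the fluid-phase regulators *Clu* (5144 per kilobase) and *Vtn* (850), and both have roles outside complement. *Clu* exceeded *C4b* by 6.18 times per kilobase (5.33 to 14.5 over the kinds of length). The 9 genes made up 34.3% of the summed base means of the list, and 64.5% without *Clu*. These are shares of counts without a length correction, in which long transcripts such as those of *C4b* and *C3* weigh more.

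Among the regulators, *Cr1l*, *Cd55* and *Cd46*, which limit complement on the surface of cells, reached 37.8, 50.5 and 9.89 per kilobase. The lowest of the group were *C4bp* (0.124), *Cd55b* (0.411) and *Cfi* (2.21). Of the lectin pathway, *Masp2* (254 per kilobase) and *Masp1* (49.9) stood highest, while *Mbl1*, *Colec10* and *Fcnb* stayed below 1 per kilobase and *Fcna* reached 10.4. Overlap with exons of genes on the opposite strand was looked for only at the genes described, and the strand setting is unknown. The levels of *Masp2* and *Masp1* are uncertain in this respect. In the alternative pathway, *Cfp*, the gene of properdin, reached 145, *Cfb* 36.1 and *Cfd* 2.81 per kilobase. *Cr2* (2.63) and *Itgax* (16.3) were the other receptor genes below *C3ar1* per kilobase, beside *C5ar1*, *C5ar2* (6.39) and *Vsig4*.

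**Figure D4:**
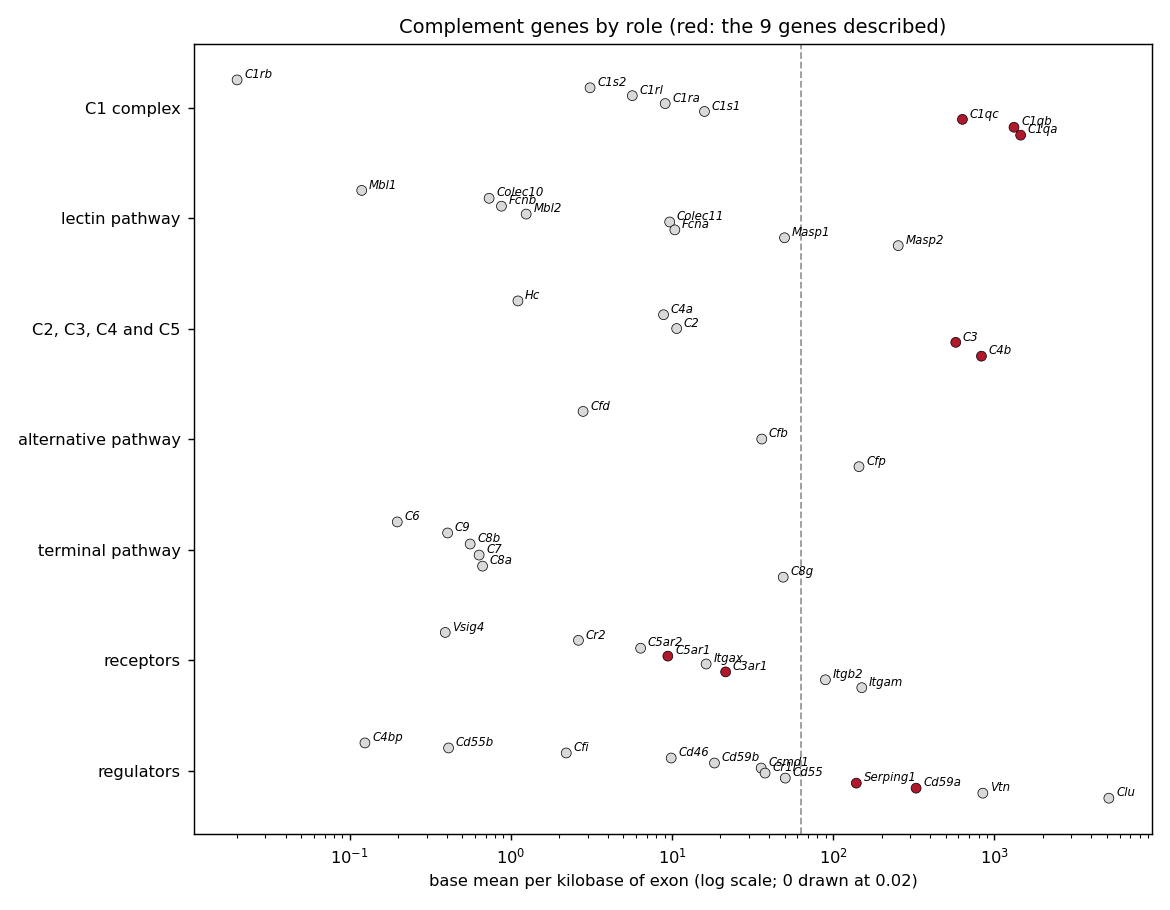
Base mean per kilobase of exon (log axis) of complement genes in 7 groups by role, with the 9 genes described in red and the others in grey; a gene not reported is not drawn. The dashed line is the median of all genes above 0; the C1q chains, *C3* and *C4b* stand far to the right of the other genes of their groups, and *Clu* is the highest of all.

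The levels can be set beside markers of the cells that could make these transcripts. All 7 Hox genes that were looked up lay above the median of all genes per kilobase, from *Hoxc9* (66.3) to *Hoxc8* (479). Of 4 forebrain genes, 3 had a base mean under 1, and *Neurod6* was at 78.9. Oligodendrocyte markers were highest, from *Mog* at 3138 to *Mbp* at 37740 per kilobase. Neuronal markers ran from *Rbfox3* (601) to *Nefl* (14045) and astrocyte markers from *Aldh1l1* (431) to *Gfap* (13345). The 8 microglial markers had a median of 241 per kilobase, with *Aif1* (72.2) the lowest. *C1qa* was not above every marker of that list, but exceeded *Cx3cr1* by 5.14 times, *Csf1r* by 2.77 times and *Tmem119* by 7.03 times per kilobase. Per kilobase of coding sequence these factors were 1.71, 1.99 and 3.61. In a whole tissue, fewer cells of a type and less RNA per cell cannot be told apart, and a level per kilobase does not say in which cells a gene is expressed.

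Markers of further cell types, inside and outside the cord, differed in level. Liver, the main source of complement in blood, was represented by *Alb*, *Apoa1*, *Ttr*, *Serpina1a* and *Fgb*, at 0.660 to 31.8 per kilobase. T cell markers did not exceed 1.38 and B cell markers 7.30 per kilobase. The neutrophil list ran from *Ly6g* (0.616) to *S100a9* (118). Markers of fibroblasts of the meninges ran from *Lum* (27.5) to *Igf2* (236), and those of Schwann cells of the nerve roots from *Prx* (86.8) to *Pmp22* (1418). Endothelial markers ran from *Pecam1* (101) to *Cldn5* (501), precursors of oligodendrocytes from *Cspg4* (63.3) to *Gpr17* (316), ependymal cells from *Tmem212* (36.7) to *Foxj1* (319) and motor neurons from *Isl1* (11.5) to *Slc18a3* (485) per kilobase. The part of each cell type in the levels of the 9 genes was not tested.

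**Figure D5:**
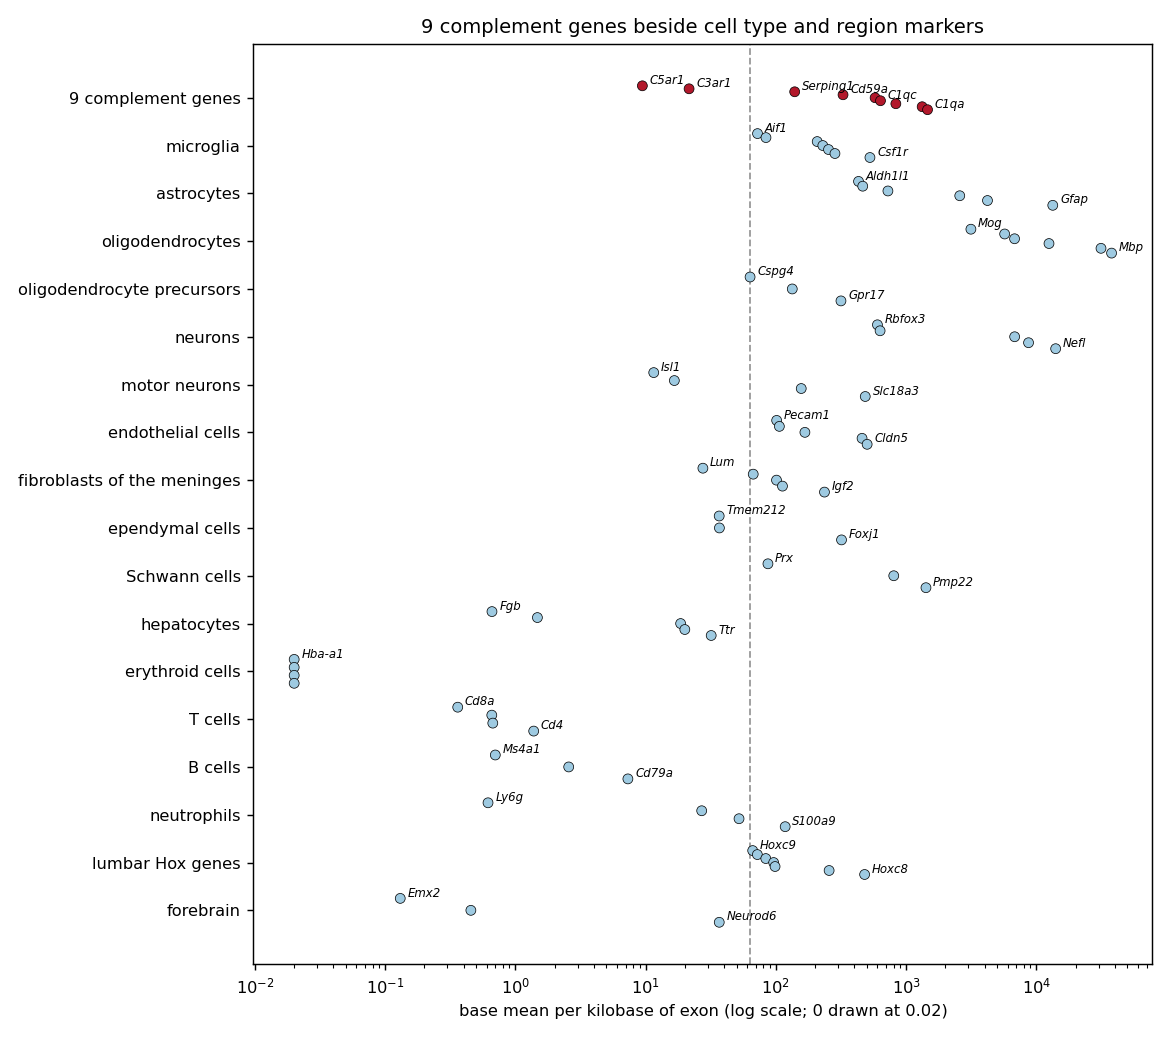
Base mean per kilobase of exon (log axis) of the 9 complement genes in red, above 17 lists of cell type and region markers in blue. The dashed line is the median of all genes above 0, the outermost genes drawn of each list are named, genes listed at 0 are drawn at 0.02, and genes not reported are not drawn; the 9 genes span the range from below the median, with *C5ar1* at 9.43, to *C1qa* at 1458.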

How the data were processed

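According to the methods, the authors removed low-quality and short reads with Fastp, aligned the rest to mm10 with HISAT2 (2.1.0 in the submitters' processing notes), assigned uniquely mapped reads to genes with featureCounts (2.0.2) and ran DESeq2. Stranded mRNA libraries were read as pairs of 100 bases. The annotation and the strand setting are not given in the sources used here.

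The authors deposited 1 table of the whole series. Its base mean, used here as a signal without a length correction, is the authors' mean over 10 libraries of normalized counts. The other 5 columns hold the log2 fold change, standard error, Wald statistic, p-value and adjusted p-value of the authors' comparison and were not used. Values of single libraries were not analysed here, so depth per library is unknown and no test between groups was made. The base means sum to 22158933.

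Symbols were matched to GENCODE M21 (GRCm38), with 24363 of 25232 found. Length was the union of annotated exons. Percentiles give the share of genes with a lower value. Windows of 100 bases of all transcripts were compared exactly, and a window was unique if it occurred in no gene at another locus. One unique read of a pair can place both, so windows can overstate the loss. Reads shorter than the window could be lost more often, and neither effect was measured. Counting intervals take 10 times the base mean as a Poisson count and cover counting error only. The window comparison was tested on simulated data, where all 200 gene pairs were recovered within 6 windows. Transcripts were aligned with biopython 1.88, tables were handled in Python 3.11.15 with pandas 2.3.3 and numpy 2.4.6, intervals came from scipy 1.17.1 and plots from matplotlib 3.10.9.

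The members and gene lists were chosen with earlier results of these data known. Beside the 9 genes, the text names the 3 highest and 3 lowest genes per kilobase of each role group, copies of members and the ends of each marker list, except for a few genes that are not reported here. Other genes, chosen after their values were seen, are *Cr1l*, *Cd55*, *Cd46*, the overlapping gene models, the remaining haemoglobin and liver genes and the microglial markers set against *C1qa*. Alternatives were another set of genes to rank against and other kinds of length.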

Additional observations from a re-analysis of the deposited data

How the results depend on the processing

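The number of the 9 genes among the highest 10% by base mean was 2 under every choice of genes to rank against. Per kilobase it was 5, and it was 3 when genes under a base mean of 5 were left out of the ranking. It was 0 when length was the coding sequence, where genes without one also dropped out of the ranking. In the other settings it lay between 4 and 5. The factor between the highest and the lowest C1q chain was 2.30, against 1.43 with the longest transcript, 1.24 with the coding sequence, 2.41 with windows found in no other gene and 1.24 without a length. The percentile of a gene per kilobase moved least for *C1qc*, from 87.0 to 93.5, and most for *C3*, from 68.5 to 91.0. Summed with its copy, *Cd59a* had a base mean of 617. No paired analysis was possible because the table gives 1 mean over all libraries, and for the same reason no library could be left out. Of the 9 genes, depth limits *C5ar1* most.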
